A study of Mus musculus with 108 samples.

Results

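Germline stem cells (GSCs) are spermatogonial stem cells that were taken from mouse testes and kept dividing in culture. They were examined here for what differs between the single cells of a line. The cells were the columns of the expression table labelled GSC1 or GSC2, without 1 GSC1 cell whose profile was that of a fibroblast-like feeder cell. That left 53 cells, 29 of GSC1 and 24 of GSC2, while the rest of the series was that 1 cell and 54 GSC-like cells. All carried the AcrAct_EGFP reporter on a 129/SvJcl x C57BL/6 background, and all were kept in StemPro-34 medium with GDNF, bFGF, LIF, EGF and serum. GSC2 came from testes of postnatal day 7 that were separate from those of GSC1, while the sources used here do not give the age of the GSC1 testes. The reference for the comparisons was the GSC-like cells (GSCLCs), which the study induced from pluripotent stem cells, with the same reporter, background and medium. They came from lines GSCLC1 (30 cells) and GSCLC4 (24 cells), and GSCLC4 derived from reconstituted testes held at 34 °C for 3 weeks. Each cell was trypsinised from its culture and amplified by SC3-seq, which reads the 3′ ends of polyadenylated RNA. Each line was taken as 1 culture, so every measure of variation was computed within a line, and the second line was the replicate.

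Spermatogonial stem cells divide to renew themselves and to give rise to progenitors that respond to retinoic acid, express Kit and enter meiosis. GDNF, made by Sertoli and peritubular cells in the testis, binds GFRA1 and the kinase RET on the stem cell, and with FGF it sustains transcription factors such as Etv5, Bcl6b, Lhx1 and Id4. In culture the cells are usually grown as clumps on feeder cells. There they cycle without synchrony and meet these factors unevenly. A profile of single cells can therefore reflect cell cycle phase, signalling and the state of the stem cell.

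The markers of the label were present. Dazl, an RNA-binding protein that germ cells need, was detected in every cell and had 1465, 2949 and 6377 RPM as its lowest, median and highest value in GSC1, and 1540, 3440 and 4696 RPM in GSC2. RPM is the deposited signal, in reads of a gene per 1000000 reads of a cell. Ddx4, Gfra1 and Etv5 were also above 0 in all 53 cells, Ret was at 0 in 1 GSC2 cell and Zbtb16 in 1 GSC1 cell. The left-out cell had 80383 RPM over a list of 20 fibroblast and feeder genes, with 8165 RPM of Acta2, 13880 RPM of Vim and 1387 RPM of Col3a1, and no Gfra1. Estimated depth was 2.02 to 6.04 M reads (1 M is 1000000 reads) per cell in GSC1 and 2.42 to 5.85 M in GSC2. Cells had 7305 to 10595 detected genes in GSC1 (median 8811) and 8037 to 10178 in GSC2 (median 9182). The labels number the GSC1 cells in 2 runs, 13 cells below 100 and 16 cells from 129 up, and each run was also examined alone. What a run stands for is not stated.

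Variation between cells fell steeply with level, so each gene was set against genes of its own level. The measure, called excess variation here, is the log2 of the squared coefficient of variation (CV, the SD over the mean) minus its running median over the genes nearest in mean level. An excess of 1 is a CV² 2-fold above that of like genes, and a gene was called variable in a line from there on. Tested were 6266 genes, those whose mean reached 20 RPM in each line. Of these 227 were called in GSC1 (3.62%) and 279 in GSC2 (4.45%). Called in both lines were 63 genes (1.01%), which is 27.8% of those called in GSC1 and 22.6% of those called in GSC2. Excess values of the lines had a Spearman rho of 0.44 across genes, which are not independent of each other. At 20 to 100 RPM the spike-ins, which hold no biology, had a median CV of 1.24 in GSC1 and 1.11 in GSC2, beside 1.24 and 1.15 for genes. Low genes as a class therefore varied about as much as spike-ins. The 27 and 29 called genes of that level had a median CV of 1.95 and 1.89, a height that follows from their choice by CV². At 1000 RPM and above, spike-ins had a median CV of 0.149 and 0.116 and genes 0.278 and 0.267.

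**Figure D1:**
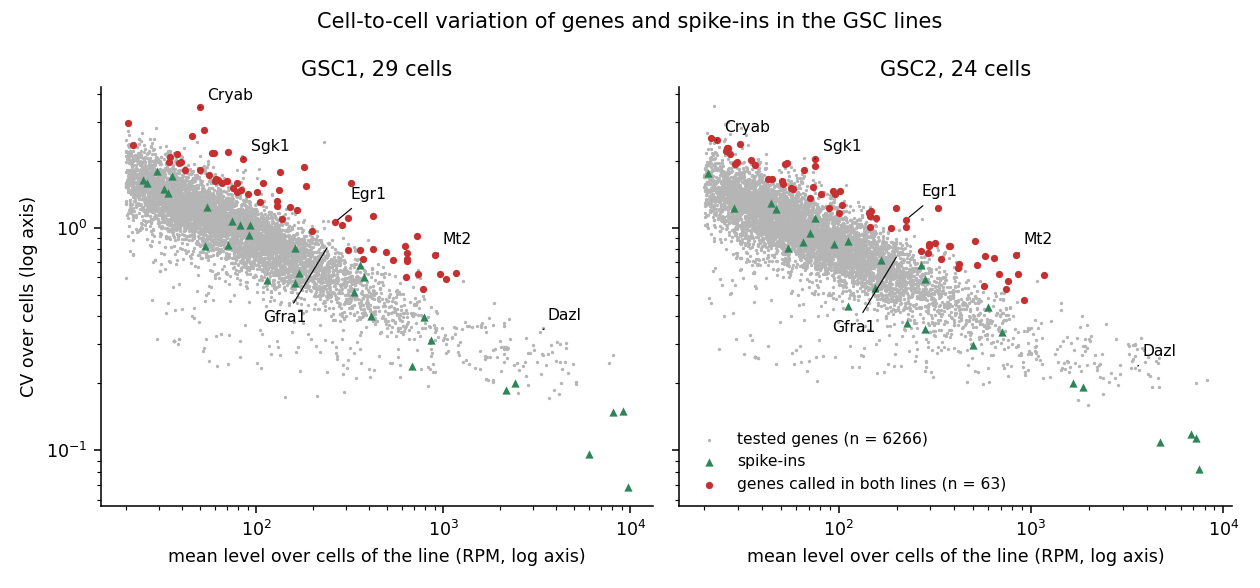
Coefficient of variation over cells against the mean level of each gene (both axes logarithmic) in GSC1 and GSC2. Grey points are the 6266 tested genes, red points the 63 called in both lines and green triangles spike-in RNAs scaled to their own total. The red points lie on the upper edge of the grey cloud in both lines, which follows from their choice by CV². Above 1000 RPM the spike-ins lie below most genes.

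**Figure D2:**
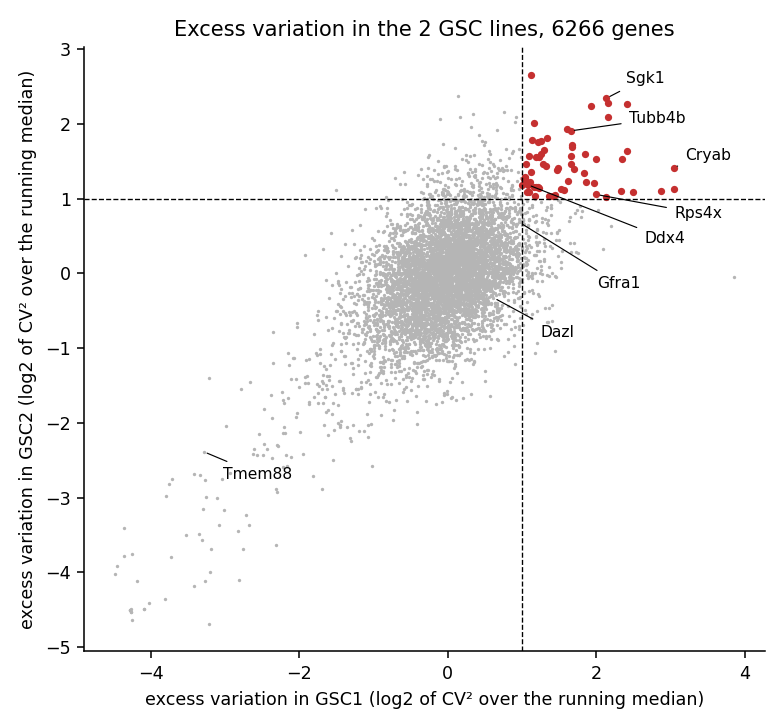
Excess variation of 6266 genes in GSC1 (x axis) and GSC2 (y axis), in log2 units, with dashed lines at the threshold of 1. The 63 red points were called in both lines. Ddx4 lies just inside the threshold, and Gfra1 and Dazl lie outside it.

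The mean levels of the 63 genes began at 24.05 RPM, close to the filter, and had a median of 126.9 RPM beside 71.85 RPM for all tested genes. The smallest values inside the threshold belonged to Cd24a, Mlycd, Rhbdl3 and Sycp3, whose smaller excess of the 2 lines was 1.03, 1.03, 1.03 and 1.01. Just outside lay Arhgap21, Nusap1, Cdon and Thoc2 with 0.99 each, so that nothing in the values separates the groups on either side. Only 21 of the 63 were in any of the 27 gene lists examined. In 8 of the 63, under 90% of values were whole reads, as happens where reads are shared with a near-identical copy (Cks2, Rpl22l1, Tubb5, Ccnb1, Mt1, Top2a, Slc2a3 and Gm595). Their levels are uncertain. The share of such genes among all tested genes was 13.6%.

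Genes of mitosis were the largest named group. Of 47 tested G2 and M phase genes, 6 were called in both lines, beside 1.01% of all tested genes. They were Cks2, Ccnb1, Tubb4b, Top2a, Ube2c and Mki67. The list's median excess was 0.45 in GSC1 and 0.18 in GSC2, against -0.01 over all tested genes in both. Tubb4b, a beta-tubulin of the spindle, had 146.6, 430 and 2191 RPM (lowest, median and highest) in GSC1 and 6.34, 593 and 2176 RPM in GSC2, with an excess of 1.66 and 1.91. In both lines the highest cell stood several-fold above the median, and 2 GSC2 cells lay under 20 RPM. Ube2c, the ubiquitin-conjugating enzyme of the anaphase-promoting complex, ran from 0 through 194 to 1467 RPM in GSC1 and from 5.49 through 235 to 945 RPM in GSC2 (excess 2.00 and 1.53). Mki67, a protein that coats mitotic chromosomes, reached 925 and 586 RPM from medians of 68.8 and 73.04 RPM, and was at 0 in 4 GSC1 and 3 GSC2 cells. Ccnb1, the cyclin that drives entry into mitosis, had 1.98, 285 and 2050 RPM in GSC1 and 0.844, 271 and 1397 RPM in GSC2. Cks2, a small subunit of cyclin-dependent kinases, had the largest smaller excess of all genes (2.41 and 2.26). For Ccnb1 and Cks2 only 50.9% and 24.5% of values were whole reads.

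The mitotic genes were high in the same cells. Spearman rho values between genes or sums are over the 29 or 24 cells of a line, describe those cells and carry no p, since cells of a line share its culture and differ in depth and in detected genes. Ccnb1 and Mki67 had a rho of 0.66 in GSC1 (0.48 and 0.80 in its runs) and 0.66 in GSC2. Ccnb1 and Top2a, the topoisomerase that untangles chromosomes, had 0.60 and 0.65, and Tubb4b and Ube2c 0.58 and 0.57. Among the 1953 pairs of the 63 genes, 54 had a rho of at least 0.3 in both lines, 10 had at least 0.5 and 14 had -0.3 or lower. Of the 10, 7 were pairs among Ccnb1, Mki67, Top2a, Tubb4b and Ube2c. Kpna2, an importin that carries cargo into the nucleus, was outside the list but went with Ube2c (0.51 and 0.48).

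Promoters of this group were read from RefSeq (GRCm38.p6, the assembly of mm10), as the 250 bases before each gene's start. A sequence was found for 50 of the 63 genes. The motifs searched on both strands were TTTGAA, known as the CHR element of genes expressed in G2 and M phase, and CCAAT. CHR was in 4 of the 6 genes (Top2a, Ube2c, Mki67 and Tubb4b) and in 16.3% of 27025 promoters of the same length, CCAAT was in 6 of 6 and in 34.5%, and both were in 4 of 6 and in 5.73%. Among the 50 called genes as a whole, 7 held CHR and 25 held CCAAT. The promoters of 3 members are shown because their genes moved together, with CHR and CCAAT matches on either strand in capitals. Ube2c lies on the plus strand (promoter at chr2:164769679-164769928), Tubb4b on the minus strand (chr2:25224703-25224952) and Ccnb1 on the minus strand (chr13:100786487-100786736). The Ccnb1 window holds CCAAT but not TTTGAA.
Ube2c: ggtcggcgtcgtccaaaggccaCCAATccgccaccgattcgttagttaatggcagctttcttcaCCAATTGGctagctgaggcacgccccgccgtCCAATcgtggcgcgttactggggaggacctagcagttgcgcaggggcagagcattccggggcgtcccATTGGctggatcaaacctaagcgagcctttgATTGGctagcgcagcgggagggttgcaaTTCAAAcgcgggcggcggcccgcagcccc
Tubb4b: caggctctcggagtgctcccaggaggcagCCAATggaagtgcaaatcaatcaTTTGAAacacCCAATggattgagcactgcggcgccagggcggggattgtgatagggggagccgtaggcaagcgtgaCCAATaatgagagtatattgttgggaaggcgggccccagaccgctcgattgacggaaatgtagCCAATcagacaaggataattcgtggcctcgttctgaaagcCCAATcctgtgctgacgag
Ccnb1: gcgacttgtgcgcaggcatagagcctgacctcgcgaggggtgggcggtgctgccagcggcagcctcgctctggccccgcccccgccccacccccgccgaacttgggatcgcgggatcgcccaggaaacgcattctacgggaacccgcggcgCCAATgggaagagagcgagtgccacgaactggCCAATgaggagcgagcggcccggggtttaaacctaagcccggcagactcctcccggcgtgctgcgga
In Ube2c the CHR match lies 29 to 24 bases before the start, and in Tubb4b 198 to 193 bases before it. Some CCAAT matches in Ube2c overlap each other on opposite strands. A match is a string of letters and not a shown binding site.

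**Figure D3:**
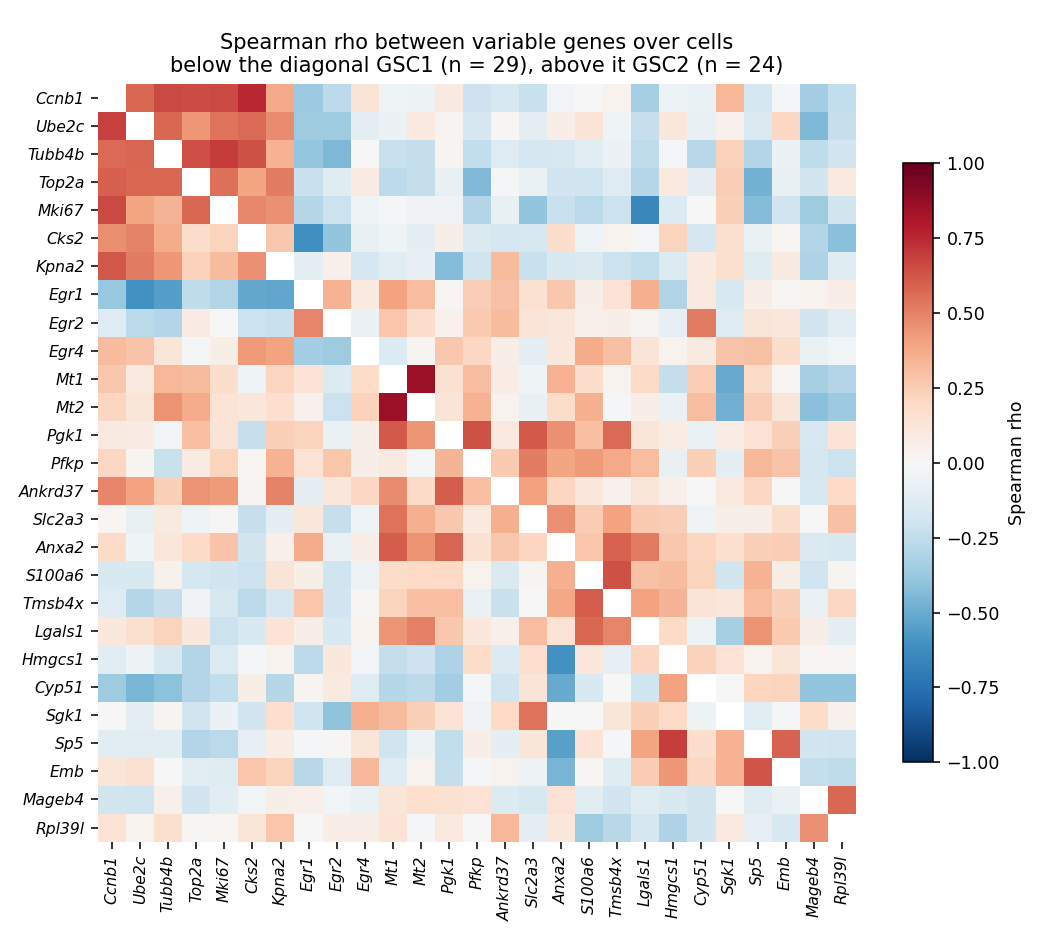
Spearman rho between 27 genes over the cells of GSC1 (below the diagonal) and GSC2 (above it), from -1 in blue to 1 in red. All 27 were called in both lines. The red block of 7 mitotic genes at the upper left, its blue border with Egr1 and the Mt1 and Mt2 pair appear in both lines.

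Of 41 tested S phase genes, 0 were called in both lines, beside 1.01% of all tested genes, and 3 were called in each. Their median excess was 0.36 in GSC1 and 0.21 in GSC2, against 0.45 and 0.18 for the G2 and M phase list, and the difference between the lists was not tested. Rrm1, a subunit of ribonucleotide reductase, had 0.494, 376 and 1102 RPM in GSC1 and 11, 431 and 1249 RPM in GSC2, with an excess of 0.86 and 1.15. Outside the list, Ccne1 (cyclin E1, of the entry into S phase) and Dut (which keeps uracil out of DNA) were called in both lines, and went together with a rho of 0.53 and 0.36. Summed over its 44 genes the S phase list had 2741, 5654 and 12272 RPM in GSC1 and 1617, 9131 and 13310 RPM in GSC2. The 54 genes of the G2 and M phase list summed to 2733, 7203 and 18393 RPM in GSC1 and 1682, 7400 and 14054 RPM in GSC2. The CV of that sum was 0.55 in GSC1 and 0.40 in GSC2, against 0.43 and 0.63 in GSCLC1 and GSCLC4 (two-sided exact permutation test over lines, p = 0.667, adjusted p = 1 over the lists, where 0.33 is the smallest p that 2 lines against 2 allow). The sums of GSC1 formed an arc rather than a line. In GSC1 the 6 cells of largest S phase sum had G2 and M phase sums of 7060 to 8717 RPM, and the 6 of largest G2 and M phase sum (11130 to 18390 RPM) had S phase sums of 4498 to 5654 RPM, at or below the line's median. In GSC2 the 6 cells of largest G2 and M phase sum spanned 4310 to 10370 RPM of S phase genes. Their median was 8461 RPM, beside 9131 RPM for the line, so the bend was less clear there.

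**Figure D4:**
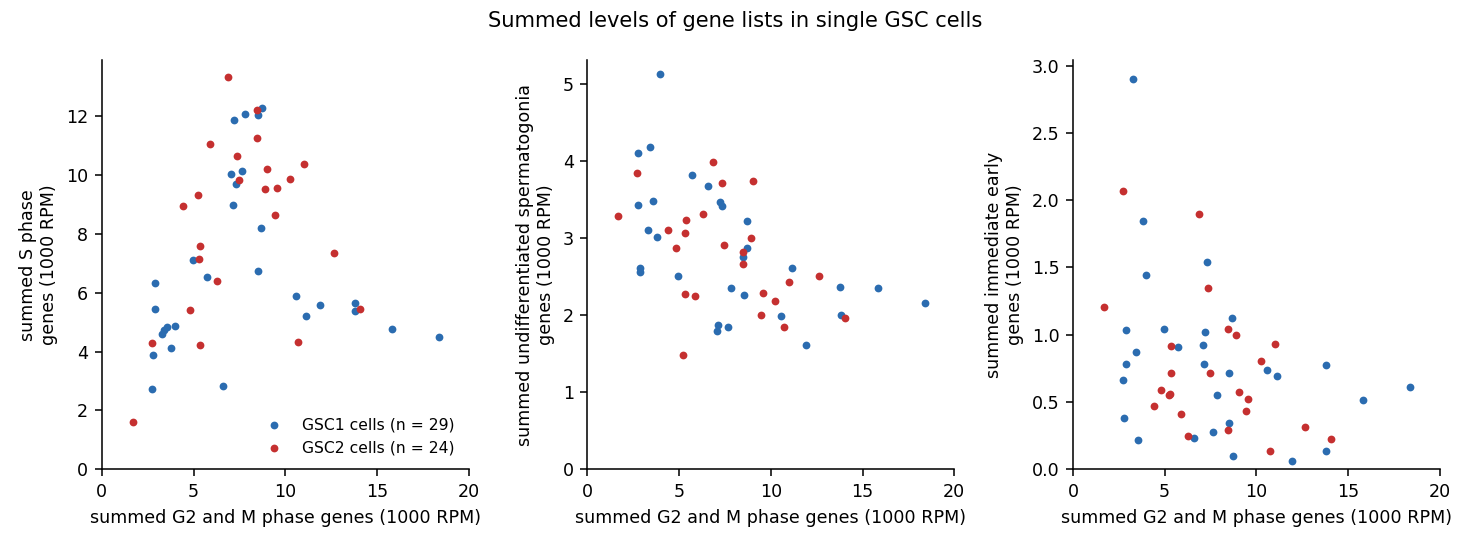
Summed level of S phase genes (left), undifferentiated spermatogonia genes (middle) and immediate early genes (right) against summed G2 and M phase genes in each cell, in 1000 RPM, for 29 GSC1 (blue) and 24 GSC2 (red) cells. In the left panel the GSC1 cells bend back at high G2 and M phase sums, the GSC2 cells less clearly. In the middle and right panels the highest GSC1 cells lie at the left, while some high GSC2 cells lie near the middle of their line's range.

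Egr1 and Egr2, which answer growth factors, varied widely, and Egr1 was lower in cells rich in mitotic genes. Egr1, an immediate early transcription factor, had 0, 180.7 and 1132 RPM in GSC1 and 0.932, 174 and 890 RPM in GSC2, with an excess of 1.67 and 1.69. Reads of at least 100 RPM were present in 17 GSC1 and 13 GSC2 cells, so high cells were not rare. Egr2, its relative, had medians of 83.6 and 99.8 RPM and highest values of 702 and 707 RPM (excess 1.47 and 1.38). With the run below 100 as GSC1 the smaller excess of Egr2 was 0.81, below the threshold. Egr4, of the same family, reached 2717 RPM in GSC1 and 853 RPM in GSC2, and its excess in GSC1 of 3.05 rested in part on the highest cell (1.502 without it). Egr1 and Egr2 went together (rho 0.49 and 0.35, with 0.60 and 0.18 in the GSC1 runs). Egr4 did not join them, with -0.34 and 0.09 against Egr1. Egr1 went against mitotic genes, with a rho of -0.51 and -0.61 with Cks2, -0.55 and -0.39 with Tubb4b and -0.61 and -0.36 with Ube2c. In GSCLC1 and GSCLC4 these were -0.22 and -0.12, -0.13 and -0.02, and -0.26 and -0.03. The pairs were picked for low values in the GSC lines, which by itself favours weaker values in other lines. With the summed G2 and M phase genes Egr1 had -0.49 in GSC1 (-0.20 and -0.66 in its runs) and -0.37 in GSC2. Egr4 had 0.35 and 0.04 with that sum. Of 8 tested immediate early genes 2 were called in both lines (Egr1 and Egr2), beside 1.01% of all tested genes. The list's medians were 0.44 and 0.69. The same 2 genes were the called members among 15 tested genes of the GDNF and FGF response, whose medians were 0.27 and 0.24.

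The sums of whole lists gave the same direction, but they are not separate from the genes above. Egr1 and Egr2 are members of the GDNF and FGF response and immediate early lists, and Egr2 of the undifferentiated list. The summed 20 genes of GDNF and FGF response had a rho of -0.54 in GSC1 (-0.41 and -0.49 in its runs) and -0.56 in GSC2 with the summed G2 and M phase genes. For the 32 undifferentiated spermatogonia genes, which share 7 members with that response list, it was -0.57 (-0.45 and -0.59) and -0.45. For the 23 immediate early genes it was -0.39 and -0.35. RPM are shares of a fixed total, so a rise of some genes lowers others by construction, which was not tested apart. The same relations in GSCLC1 and GSCLC4 were -0.39 and -0.08 for the response list and -0.31 and 0.07 for the undifferentiated list. The difference between the types was not tested. The spike-in signal, which stands against the RNA of the cell, had a rho of -0.49 and -0.12 with the summed G2 and M phase genes, and estimated reads 0.12 and -0.03. Their part in these relations was not tested.

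Sgk1, a kinase induced by serum and glucocorticoids, was high in few cells. It had a median of 1.67 RPM in GSC1 and 0.543 RPM in GSC2 but reached 691 and 558 RPM, was at 0 in 10 cells of each line, and was at least 100 RPM in 6 GSC1 and 4 GSC2 cells. Its excess of 2.14 and 2.34 stayed at 2.11 and 2.34 without the highest cell of each line. Cells with more detected genes had somewhat more of it (rho 0.35 and 0.34). Sp5, a zinc finger factor induced by Wnt signals, was at 0 in 10 GSC1 and 5 GSC2 cells and reached 780 and 651 RPM, and without the highest cell its excess went from 2.16 to 1.09 and from 2.10 to 1.25. Its smaller excess of the lines was 0.30 with the run below 100 as GSC1, which lost the call. The SD of log2(RPM + 1) in place of CV² gave 0.75, also below the threshold. Emb, the membrane glycoprotein embigin, ran from 0 through 39.2 to 800 RPM and from 0 through 84.5 to 599 RPM. With the run from 129 up as GSC1 its smaller excess was 0.63, below the threshold. Sp5 and Emb went together with a rho of 0.63 (0.77 and 0.47 in the runs) and 0.59. In GSCLC1 and GSCLC4 that rho was 0.25 and -0.12. The pair was picked for its rho in the GSC lines, which by itself favours lower values in other lines. Sfrp2, a secreted Wnt modulator, had a mean of 75.2 RPM in GSC1 and 327.2 RPM in GSC2 and an excess of 1.13 and 2.66.

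Metallothioneins varied as a pair. Mt2, a small protein that binds zinc and copper, had 160, 803 and 3084 RPM in GSC1 and 47.6, 747 and 2415 RPM in GSC2, with an excess of 2.16 and 2.27. No cell lacked it, so the spread was one of level. Mt1, its neighbour on chromosome 8, had 27.7, 641 and 1861 RPM and 106.8, 496 and 1951 RPM (excess 1.61 and 1.93). With the run below 100 as GSC1 the smaller excess was 1.01 for Mt2 and 0.62 for Mt1, which lost its call. The pair had the highest rho of all 1953, 0.86 in each line and 0.77 and 0.86 in the runs of GSC1. Whole reads made up 100% of the values of Mt2 and 77.4% of those of Mt1. The promoter of Mt2 (plus strand, chr8:94172368-94172617) is shown for its metal response cores, TGCGCNC or TGCACNC, in capitals on either strand. These cores were in 21.3% of all promoters.
Mt2: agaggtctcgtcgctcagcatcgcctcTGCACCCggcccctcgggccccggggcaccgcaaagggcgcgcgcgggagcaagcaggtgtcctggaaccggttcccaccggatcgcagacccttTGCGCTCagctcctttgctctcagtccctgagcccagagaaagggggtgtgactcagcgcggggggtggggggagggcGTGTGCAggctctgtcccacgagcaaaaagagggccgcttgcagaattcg

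Several genes of the list for glucose use and low oxygen varied in both lines. Of 17 tested members, 4 were called in both lines (Pgk1, Pfkp, Slc2a3 and Ankrd37), beside 1.01% of all tested genes. The medians of 0.69 and 0.70 were the highest among lists with over 10 tested genes. Slc2a3, a glucose transporter, had whole reads in 80.8% of its values. Its smaller excess was 0.43 without the GSC1 cell of highest feeder gene sum, described with the fibroblast genes. With the run below 100 as GSC1 it was -0.69. Pgk1, a glycolytic enzyme often taken as constant, had 0, 94.6 and 656 RPM in GSC1 and 0.401, 128 and 640 RPM in GSC2, with an excess of 1.49 and 1.41. It was at least 100 RPM in 14 cells of each line, and 18 cells of each line had at least 20 RPM. Ankrd37, a target of hypoxia-inducible factor, had medians of 11.1 and 31.3 RPM and reached 462 and 388 RPM. Pfkp, a phosphofructokinase, reached 500 and 475 RPM from medians of 29.6 and 51.3 RPM. With the SD of log2(RPM + 1) in place of CV² its smaller excess was -0.03, below the threshold. Pgk1 and Pfkp went together (0.34 and 0.63), and Pgk1 and Ankrd37 did so in GSC1 (0.60) but hardly in GSC2 (0.10). Gapdh was not called, but its excess of 0.65 and 0.50 was not far below the medians of this list. It had 575, 1524 and 2784 RPM in GSC1. The oxidative phosphorylation list had 0 of 33 tested genes called in both lines, beside 1.01% of all tested genes, and medians of -0.16 and -0.31. The hypoxia core ACGTG was in 2 of the 3 called genes of the list with a promoter entry (Pgk1 and Ankrd37), in 16 of the 50 called genes and in 16.6% of all promoters. The promoter of Pgk1 (plus strand, chrX:106186850-106187099) carries it on each strand, in capitals.
Pgk1: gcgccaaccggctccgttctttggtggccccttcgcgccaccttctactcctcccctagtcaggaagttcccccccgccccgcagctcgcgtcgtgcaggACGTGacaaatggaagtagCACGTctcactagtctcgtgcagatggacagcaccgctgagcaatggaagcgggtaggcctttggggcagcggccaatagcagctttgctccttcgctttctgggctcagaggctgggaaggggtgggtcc

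Genes of cholesterol synthesis that were called in both lines included Hmgcs1 and Cyp51. Hmgcs1, the enzyme that makes HMG-CoA for sterols, had 55.01, 170 and 1390 RPM in GSC1 and 8.69, 280 and 1285 RPM in GSC2 (excess 1.66 and 1.57, and 1.25 and 0.99 without the highest cell). With the run from 129 up as GSC1 its smaller excess was 0.72, below the threshold. Cyp51, a later enzyme of the pathway, reached 502 and 484 RPM from medians of 44.2 and 19.9 RPM. Hmgcs1 and Cyp51 went together only loosely, with a rho of 0.41 in GSC1 and 0.23 in GSC2. Over the 16 tested genes of the list the medians were 0.06 and 0.33.

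X-linked genes made up 8 of the 62 called genes with a known position (12.9%), beside 4.02% of 6072 tested genes. They were Gm595, 1700013H16Rik, Mageb4, Rps4x, Pgk1, Apool, Nxf2 and Tmsb4x. Among all genes called in a line the share was lower, 15 of 221 (6.79%) in GSC1 and 23 of 270 (8.52%) in GSC2. Mageb4, a germ cell gene of the MAGE family, had 0.516, 551 and 1816 RPM in GSC1 and 0.374, 490 and 1222 RPM in GSC2, with an excess of 1.85 and 1.60. Only 3 GSC1 and 2 GSC2 cells lay under 20 RPM, and the rest formed a broad band. Nxf2, an mRNA export factor of the testis, had medians of 332 and 217 RPM and an excess of 1.09 and 1.57. Rps4x was the single called member of 46 cytosolic ribosomal protein genes, beside 1.01% of all tested genes. That list's medians were -0.15 and -0.17. Rps4x had 8.01, 468 and 1928 RPM in GSC1 and 4.65, 340 and 970 RPM in GSC2 (excess 2.00 and 1.06). Rpl39l, an autosomal relative of Rpl39 that the testis expresses, had 272, 799 and 3072 RPM and 98.5, 766 and 1586 RPM, and went with Mageb4 (rho 0.45 and 0.58).

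Of 20 tested germ cell and piRNA genes 1 was called in both lines, Ddx4, the germ cell RNA helicase, beside 1.01% of all tested genes. The list's medians were 0.10 and 0.11. Ddx4 had 273, 716 and 1679 RPM in GSC1 and 237, 860 and 1791 RPM in GSC2 (excess 1.08 and 1.19), and it kept its call in 10 of the 14 alternative settings other than a higher threshold. Dazl had an excess of 0.62 and -0.33. Sycp3, a protein of the meiotic chromosome axis, was the called member of 11 tested meiosis genes, beside the same 1.01%. It had 0, 107.3 and 506 RPM and 0, 65.03 and 451 RPM. Mael, of the piRNA pathway, had an excess of 0.67 and 0.61.

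Of 19 tested genes of undifferentiated spermatogonia 1 was called in both lines (Egr2), beside 1.01% of all tested genes, and the list's medians were 0.05 and 0.22. Gfra1 had 7.74, 172.2 and 820 RPM in GSC1 and 6.20, 179 and 752 RPM in GSC2, below the threshold in both lines (excess 0.97 and 0.68, and 0.95 and 0.05 without the highest cell). Ret, its partner kinase, had medians of 72.5 and 76.96 RPM and an excess of -0.20 and 0.99. Etv5, a transcription factor that GDNF induces, had 12.6, 217 and 899 RPM and 71.5, 232 and 771 RPM (excess 0.72 and 0.52). Zbtb16, a repressor of differentiation, had medians of 42.6 and 40.3 RPM (excess 0.31 and 0.23). A further 13 of the list's 32 genes were too low to be tested. Lhx1 had 0, 123 and 389 RPM in GSC1 and 0, 114.6 and 574 RPM in GSC2 and was called in GSC2 only (excess 0.29 and 1.09). It went against the summed G2 and M phase genes with a rho of -0.50 and -0.42, as did Etv5 with -0.39 and -0.36. Other regulators did so less or not at all. Gfra1 had -0.45 and -0.15, Bcl6b -0.09 and -0.27, and Ret -0.10 and -0.07. Zbtb16 had 0.13 and -0.01, and Id4 0.02 and 0.36. The genes nearest to Gfra1 over the cells, by the smaller rho of the lines among 5410 genes, were Pgpep1 (0.43 and 0.39) and Gm20101 (0.37 and 0.35).

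Regulators of low level were found in part of the cells. Id4 was detected in 23 of 29 GSC1 cells (79.3%, exact 95% interval 60.3% to 92%) and in 22 of 24 GSC2 cells (91.7%, 73% to 99%). Its mean was 23.5 and 37.6 RPM with medians of 3.66 and 15 RPM, and it was not called (excess 0.01 and 0.22). Nanos2, a marker of the most undifferentiated spermatogonia, was detected in 1 GSC1 cell (3.45%) and in 8 GSC2 cells (33.3%, 15.6% to 55.3%), or 1 and 7 after every cell was thinned to 2024000 reads. Kit, the receptor of differentiating spermatogonia, was detected in 10 GSC1 cells (34.5%, 17.9% to 54.3%) and 12 GSC2 cells (50.0%, 29.1% to 70.9%), or 8 and 11 after thinning. It reached at least 20 RPM in 3 and 9 cells. Stra8, which retinoic acid induces, was detected in 7 and 3 cells, and Neurog3 in 4 and 2. The intervals cover counting error only. Detected means above 0.

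**Figure D5:**
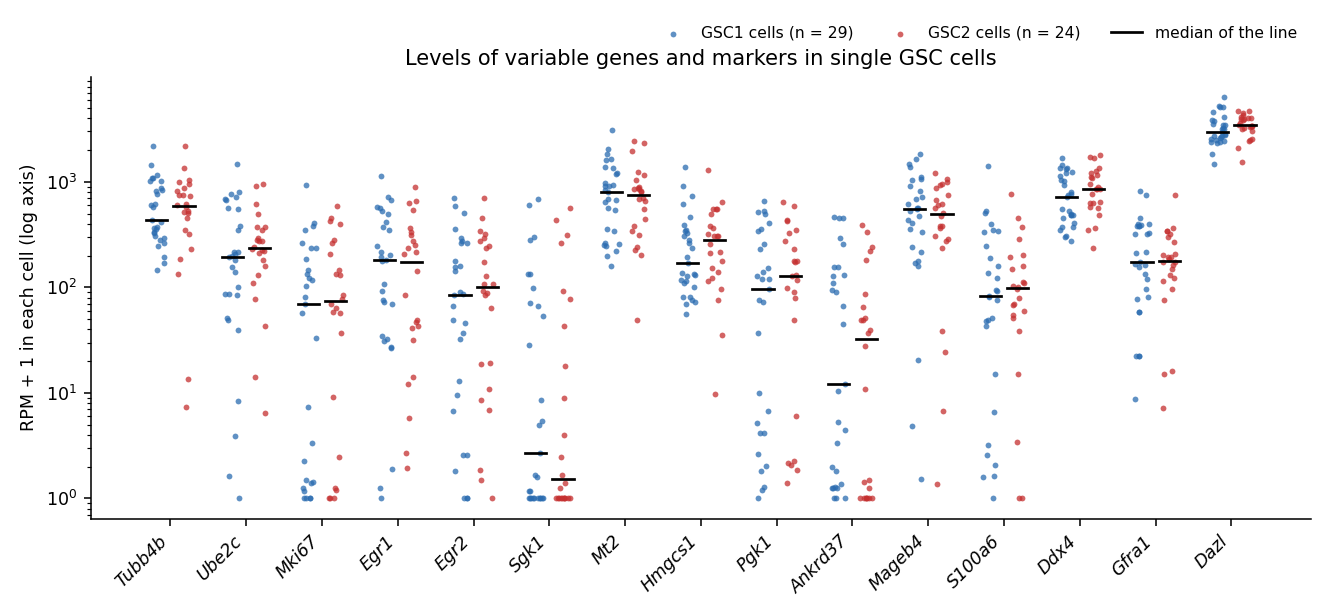
Level of 15 genes in each of the 29 GSC1 (blue) and 24 GSC2 (red) cells, as RPM + 1 on a log axis, with black bars at the line medians. Sgk1, Ankrd37 and Mki67 have cells at the bottom of the axis and cells above 100 RPM in both lines, while Dazl, Ddx4 and Mt2 spread around their median.

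Genes of the cytoskeleton and cell surface that fibroblasts also express were called in both lines. S100a6, a calcium-binding protein, had 0, 81.6 and 1420 RPM in GSC1 and 0, 97.3 and 765 RPM in GSC2, with an excess of 2.34 and 1.53. Lgals1, a galectin, had 108.9, 422 and 1821 RPM and 8.79, 360 and 1195 RPM (excess 1.53 and 1.12). Tmsb4x, which binds actin monomers, reached 1503 and 298 RPM, and Anxa2, an annexin, 1280 and 409 RPM. Cryab, a small heat shock protein, was at 0 in 14 GSC1 and 12 GSC2 cells and reached 907 and 200 RPM. With the number of detected genes, Cryab had a rho of 0.42 in GSC1 and 0.58 in GSC2. Tmsb4x had 0.23 and 0.46, Anxa2 0.14 and 0.51, S100a6 -0.05 and 0.37, and Lgals1 0.19 and 0.15. S100a6 and Tmsb4x had a rho of 0.61 in GSC1 and 0.64 in GSC2, but 0.07 in the GSC1 run below 100 and 0.78 in the other. The calls also depended on the run. With the run below 100 as GSC1, the smaller excess was 0.29 for S100a6, -0.22 for Lgals1, 0.42 for Tmsb4x and 0.60 for Anxa2. With the run from 129 up it was 1.53, 1.12, 1.11 and 1.10. Without each gene's highest cell it was 0.89, 0.65, 1.24 and 0.48. Markers of feeder cells were set beside these genes. Of 20 fibroblast and feeder genes, 6 were tested and S100a6 and Lgals1 were called in both lines, beside 1.01% of all tested genes. The list summed to 256, 906 and 6289 RPM in GSC1 and 222, 692 and 2005 RPM in GSC2. The GSC1 cell with 6289 RPM had the highest S100a6 and Lgals1 of its line, 2604 RPM of Vim and 262 RPM of Acta2, but listed Col1a2, Col3a1, Dcn, Lum and Postn at 0, with a germ cell and piRNA sum of 5070 RPM beside a median of 6874 RPM. Other members of the list were widespread. Fn1 and Vim were detected in all 53 cells, Col1a1 in 22 GSC1 and 18 GSC2 cells (up to 228 and 51.1 RPM), Col5a1 in 21 and 18, Sparc in 20 and 12, Timp1 in 27 and 19 and Acta2 in 18 and 9. Col1a2 was detected in 1 GSC1 cell and Col3a1 in 2, none in GSC2, and Lum and Ccl2 were listed at 0 in all cells. Without that cell 58 genes were called in both lines, 56 of them among the 63, and the rho of S100a6 and Tmsb4x in GSC1 was 0.56. The smaller excess of the lines was then 1.03 for S100a6 and 1.11 for Tmsb4x, but 0.97 for Lgals1 and 0.32 for Anxa2, which lost their calls, and the mean of Cryab in GSC1 was below the filter. D15Ertd621e, Mlycd, Nxf2 and Slc2a3 also lost theirs. Whether feeder RNA has a part in these values was not tested.

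The most even genes were mostly ones without whole reads. Of 66 genes with an excess of -2 or lower in both lines, 63 (95.5%) had values that often were not whole reads. Among genes of whole reads the lowest were Tmem88 (-3.29 and -2.39), Wdr46, a nucleolar protein (-2.17 and -2.43), Rsl24d1, of ribosome assembly (-2.11 and -2.46), and Hat1, a histone acetyltransferase (-2.47 and -1.81). Tmem88 had 11.4, 47.6 and 87.5 RPM in GSC1 and 13.5, 32.1 and 89.1 RPM in GSC2. Among genes with at least 90% whole reads the highest levels belonged to Dazl, Rpl13a and Rpl8, with means of 3285, 3016 and 2839 RPM in GSC1 and 3457, 2457 and 2535 RPM in GSC2. Rpl8 had an excess of -0.97 and -0.74.

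The GSCLC lines, whose cells took no part in choosing the 63 genes, show which of them vary there too. In GSCLC1 27 of the 59 measured genes were called (45.8%, beside 4.08% of 5963 genes), in GSCLC4 29 of 59 (49.2%, beside 5.21% of 6005) and in both 21 of 57 (36.8%, beside 0.928% of 5820). The 21 held the mitotic genes Cks2, Ccnb1, Tubb4b, Top2a, Ube2c and Mki67, the Egr family genes Egr1, Egr2 and Egr4, and Mt2, Hmgcs1, Rps4x and Nxf2. Slc2a3, of the glycolysis and hypoxia list, was also among them, with 1.32 and 1.42. Its fellow members Pgk1, Pfkp and Ankrd37 were not, with values of 0.74, -0.67 and 0.12 in GSCLC1 and 0.93, -0.26 and 0.89 in GSCLC4.

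A test of variation itself, limma on the excess of 4 lines with Benjamini-Hochberg adjustment, called 0 of 5820 genes (0.0% in either direction), and 326 had an unadjusted p under 0.05. Of the alternatives run, 2 gave calls, 1 gene without GSCLC1 and 2 with the feeder-like cell kept. Pfkp was nearest among the 63, at 1.19 and 1.56 in the GSC lines and -0.67 and -0.26 in the GSCLC lines, a difference of 1.84 (SE 0.46, adjusted p = 0.0794 by limma). S100a6 stood at 2.34 and 1.53 against 0.00 and 0.45 (adjusted p = 0.465 by limma). Over the 57 measured genes 48 differences were above 0 with a median of 0.63, beside -0.01 over all genes, but these genes were chosen for high values in the GSC lines.

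Mean levels were compared in the same way, by limma on log2(mean RPM + 1) of the 4 lines. It called 10 of 10519 genes, 3 higher in GSC lines (0.0285%) and 7 lower (0.0665%), and 939 had an unadjusted p under 0.05. S100a6 was the called member of the 63, whose means were 184.6 RPM (GSC1) and 146.4 RPM (GSC2) against 54.41 RPM (GSCLC1) and 40.11 RPM (GSCLC4), a log2 difference of 1.79 (SE 0.27, adjusted p = 0.0386 by limma). Both GSC lines lay above both GSCLC lines. Over 11 alternatives its adjusted p ranged from 0.0162 to 0.506, and leaving out GSC1, GSC2, GSCLC1 or GSCLC4 gave 0.239, 0.0606, 0.0570 and 0.315, so the call was lost without any of the 4 lines. Leaving out the GSC1 cell of highest feeder gene sum kept it (1.60, adjusted p = 0.0438 by limma) and raised the genes called by limma from 10 to 23, which were 12 higher and 11 lower. Other variable genes lay just short of the threshold. Lgals1 had 540.3 and 341.4 RPM against 74.28 and 185.2 RPM (difference 1.86, adjusted p = 0.0856 by limma, and 0.0491 without that cell). Mt2 had 901.3 and 834.6 RPM against 480.1 and 510.2 RPM (difference 0.81, adjusted p = 0.0745 by limma). Sfrp2 had 75.24 and 327.2 RPM against 26.71 and 18.49 RPM (difference 2.77, adjusted p = 0.0880 by limma). The called genes that were lower in GSC lines included Hey1, a Notch target (difference -2.28), and Mest, an imprinted gene (-1.91). None of the 6 markers of the label was called, and their median difference was -0.21 beside -0.03 over all genes. With 2 lines per type these p-values measure the spread between culture lines.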

How the data were processed

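The deposited table holds 1 signal value per gene and cell in RPM, as the report defines it, for 26218 genes and 92 ERCC spike-ins. The gene rows sum to a little over 1000000 per cell, with the spike-ins on top. The submitters' processing notes name cutadapt 1.3, TopHat 1.4.1 and Cufflinks 2.2.0, with mm10 as the build. The sources used here do not say how shared reads or strand were handled, so overlapping genes cannot be told apart. The most frequent value above 0 was taken as 1 read. Within 0.05 read, 85.6% to 91.6% of a GSC cell's values were whole, too few for a count model. Each library is 1 cell and no doublet caller was run.

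Excess variation was computed in Python 3.11.15 as the report defines it. Means over lines were compared with limma 3.58.1 (R 4.3.3, eBayes with trend), adjusted by Benjamini-Hochberg, threshold 0.05. Levels were tested for genes with at least 5 RPM in 2 of 4 lines, with a pseudocount of 1. A fold change on that scale understates changes of low genes. Scripts were tested on simulated data. The window of the running median held 50 genes on either side of a gene. Alternatives covered filters, the measure, window, scaling, depth, runs, single cells, lines and pseudocounts.

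The members, gene lists and motifs were chosen with earlier results of these data known. Named genes were, among genes with at least 90% whole reads, the 15 of largest smaller excess, the 8 of lowest larger excess, the 6 markers, up to 4 per list, the 12 highest, the 5 nearest to each anchor gene and the limma calls. Other genes called in both lines were named after their values were seen. Results for some genes are not reported here.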

Additional observations from a re-analysis of the deposited data

How the results depend on the processing

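The count of 63 genes called in both lines was 97 when the SD of log2(RPM + 1) replaced CV², with 29 of the 63 among them, and 14 at a threshold of 1.5. It lay between 42 and 80 under the other settings run. In GSC1 the 3.62% called became 6.54% and 6.15% in the runs below 100 and from 129 up alone, 0.81% at a threshold of 1.5 and 2.56% without each gene's highest cell. In GSC2 the 4.45% became 0.93% and 2.99% under the last 2 of these. A filter of 50 RPM left 127 and 178 called genes. Called in all 14 alternative settings other than the higher threshold were Ankrd37, Egr1, Mageb4, Mt2, Pgk1, Rps4x, Sgk1, Tubb4b and Ube2c. Other calls depended on the GSC1 run. For example, the smaller excess was 0.15 for Kpna2 with the run below 100, and 0.47 for Rpl39l with the run from 129 up. The smaller excess of Cryab was -0.0025 with the SD of log2. For variation between types, leaving out a line gave 0 to 1 genes by limma (the 1 without GSCLC1), and keeping the feeder-like cell gave 2.

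For levels, leaving out a line gave 2 to 13 genes by limma (2 without GSCLC4, 4 without GSCLC1, 6 without GSC1). Leaving out the GSC1 cell of highest feeder gene sum, an alternative chosen after seeing the data, gave 23. A pseudocount of 10 gave 20 and of 0.1 gave 3. No filter gave 0 (1407 at an unadjusted p under 0.05 by limma), and no variance trend gave 0 (874). Size factors gave 23, which were 13 higher and 10 lower in GSC lines against 3 and 7. The causes were not tested. No paired analysis was possible because the lines share no cell numbers. At 20 to 100 RPM the noise of spike-ins limits what can be called.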

Other observations

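Of 11 tested heat shock and chaperone genes, 9 p53 targets, 9 genes of ER stress and 7 imprinted genes, none was called in both GSC lines, where 1.01% of all tested genes were. In GSC2 alone 2 of the p53 targets and 2 of the imprinted genes were called, beside 4.45% of all tested genes. Median excess was 0.25 in GSC1 and 0.28 in GSC2 for p53 targets, 0.55 and -0.19 for ER stress, -0.09 and 0.39 for heat shock and 0.04 and 0.27 for imprinted genes. Ccng1, a cyclin that p53 induces, had an excess of 0.92 in GSC1 and 2.09 in GSC2. None of 4 tested pluripotency genes was called in both lines.

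Nearest genes over the cells were also sought for other stem cell regulators. For Lhx1 the nearest of 5410 genes was Usp8, a deubiquitinase (rho 0.55 in GSC1 and 0.47 in GSC2). For Id4 it was Rbm18 (0.55 and 0.50), and for Etv5 it was Pih1d1 (0.41 and 0.61). These are the highest of many values over the 29 or 24 cells of a line, and they describe those cells only.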
